A study of Rattus norvegicus with 6 samples.

Results

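The genes described here lie on rat chromosome 1 around Men1, the gene of the nuclear scaffold protein menin. They were chosen by position: every row of the deposited table between 220.73 and 225.09 Mb on chromosome 1 of the rn6 build, a window of 4.36 Mb from Cst6 to LOC690349, without Men1 itself and without genes whose names begin with Cox, Rab, Eef or Atg. Of the 146 rows in the window, 3 were thereby left out (Men1, Cox8a and Atg2a), and 143 of the 35362 rows of the table were kept. Of the 143 genes, 64 lie below Men1, at lower coordinates, and 79 above it. A value of at least 1 RPKM (reads scaled to gene length in kilobases and to library size) in at least 3 of the 6 libraries was required for a test, and 97 genes met it, 49 below Men1 and 48 above. The borders were drawn after earlier work on these libraries had seen the difference between S487D and S487A cells in this stretch. Differences between the groups are therefore given as a description of these libraries, and the number of genes past the threshold of the genome-wide fit is printed beside its share among all genes.

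The cells were INS-1, an insulin-secreting line from a rat insulinoma that is widely used in place of beta cells. They were at passages 75 to 80 and had been transduced with a pMX-puro retrovirus for Flag-tagged menin, and both groups overexpressed a mutant of it: S487A has alanine, without a site for phosphate, in place of a serine, and S487D the acidic residue aspartate. Messenger RNA of 3 libraries per group was sequenced. Nothing in the labels tells whether a group's libraries stem from different cultures, or whether the cells were a clone or a pool, so the spread between libraries may be technical, and the mutant cannot be told apart from the cell population that carries it. No sample with wild-type menin, and none lacking the transgene, was analysed here. The contrast sets the phosphorylation-mimicking against the phosphorylation-dead menin. The reads assigned to genes numbered 9444801 to 10867549 per library, and 3 reads were worth 0.276 to 0.318 RPKM in a 1 kb gene. All 14 beta cell markers examined were above 1 RPKM in every library. The 5 leukocyte, 5 fibroblast and 4 endothelial markers summed to at most 0.996, 1.197 and 0.516 RPKM in any library, and Ptprc and Cd79a, Col3a1 and Dcn, and Cdh5 were listed at 0. Marker sums that differed between the groups were those of beta cells (11800 to 12380 RPKM in S487A, 22530 to 23660 in S487D), other islet cells (91.8 to 104 and 782 to 864, with Sst and Ppy at 0) and acinar and duct cells (208 to 226 and 80.6 to 84.5, with 4 of 6 at 0). Their part in the differences around Men1 was not tested, and in such bulk libraries fewer cells of a type and less RNA per cell cannot be told apart.

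Menin binds chromatin with MLL histone methyltransferases and with transcription factors such as JunD, and MEN1 is the tumour suppressor gene lost in multiple endocrine neoplasia, whose tumours include insulinomas. The genes beside Men1 share a place on the chromosome rather than a pathway. This is a gene-dense neighbourhood, with many genes that most cells use, for splicing, protein quality control, membrane traffic and signalling, next to a family of kidney and liver transporters for organic anions.

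Most of the 97 tested genes had slightly more mRNA in S487D cells, on both sides of Men1 and by about the same amount. The median log2 change on the log2(RPKM + 1) scale, S487D minus S487A, was 0.17, a 1.12-fold difference, against -0.014 over all 12527 genes tested and 0.0046 over the 1463 other tested genes of chromosome 1. Below Men1 the median was 0.17 (quartiles 0.0060 and 0.23) and above it 0.18 (quartiles 0.027 and 0.33). The value was positive in 37 of 49 genes below and in 38 of 48 above. In the fit across all genes (limma, Benjamini-Hochberg adjusted p under 0.05), 49 of the 97 genes passed the threshold as higher in S487D, where 20.1% of all genes tested did, and 8 as lower, where 24.3% did. Since the window was drawn on this contrast, nothing is read from the excess. By side, 24 genes were higher, 3 lower and 22 passed no test below Men1, and 25 were higher, 5 lower and 18 passed no test above it. The libraries of S487D lay wholly above those of S487A in 55 genes (25% of all genes tested) and wholly below in 10 (29.5% of all). The filter can be met by the libraries of a single group, and genes that met it so are counted here.

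**Figure D1:**
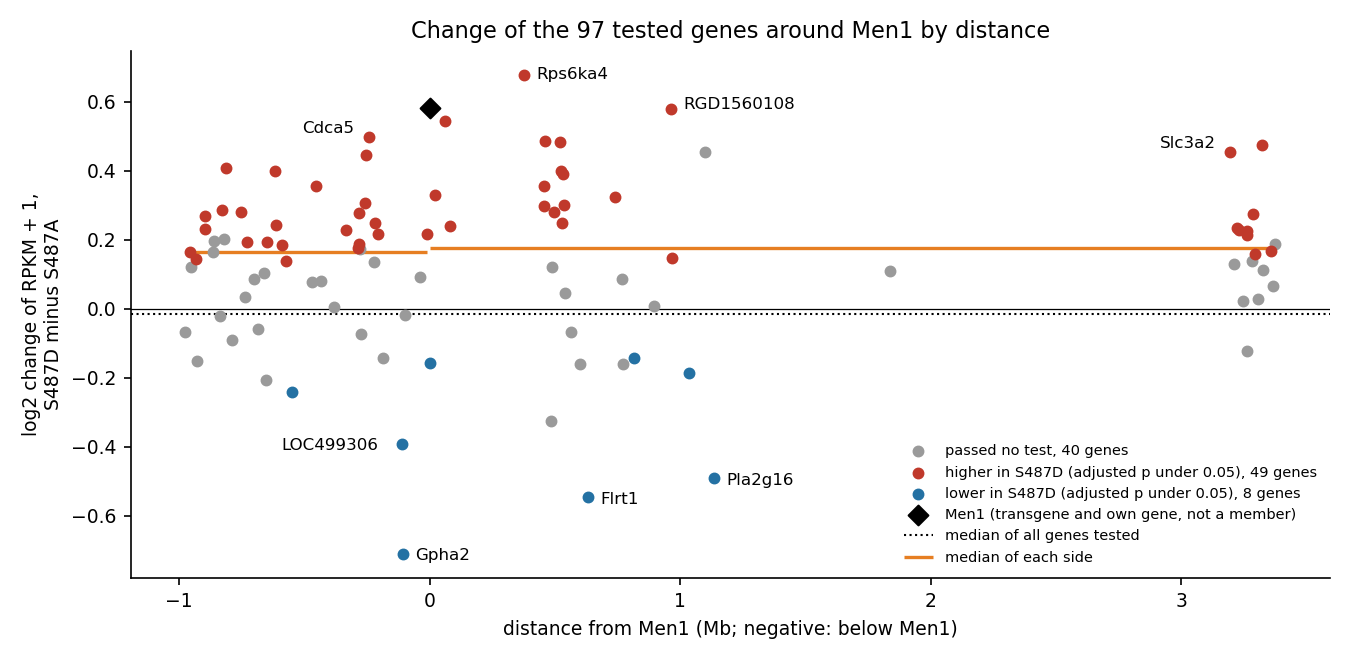
Log2 change of RPKM + 1 (S487D minus S487A, vertical axis) of the 97 tested genes by distance from Men1 in Mb (horizontal axis), coloured by the call of the genome-wide fit; orange lines are the medians of each side and the dotted line the median of all genes tested. Points on both sides sit mostly above 0, around 0.17 below and 0.18 above Men1, and Gpha2, Flrt1, Pla2g16 and LOC499306 lie farthest below the rest.

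The shift was seen in each library. Relative to the S487A mean of each gene, the median over the 97 genes was -0.027, 0.0055 and 0.021 (log2) in S487A replicates 1, 2 and 3, and 0.18, 0.16 and 0.16 in S487D replicates 1, 2 and 3. The S487A libraries are set against their own mean, which holds their medians close to it. Since the window was drawn on this contrast, nothing is read from the gap between the groups. Below Men1 the S487D medians were 0.15, 0.16 and 0.16, and above it 0.22, 0.15 and 0.13. Over all genes tested, the same 3 libraries had medians of 0.0062, -0.033 and -0.012. Among the 97 genes, 74.2 to 78.4% lay above the S487A mean in an S487D library, and 29.9 to 67.0% in an S487A library. The median of the 51 tested genes in another raised stretch of the same libraries, on chromosome 14 and also chosen from this contrast, was 0.68 on the same scale, against 0.17 around Men1.

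The medians did not fall steadily with distance from Men1. Taken outward in runs of 10 tested genes, the medians below Men1 were 0.11, 0.18, 0.16, 0.14 and, for the last 9 genes, 0.16. The run next to Men1 on that side reaches from Cdc42bpg out to Cdca5, and the order of the 5 medians changes with the pseudocount and other settings. Above Men1 the medians were 0.31, 0.27, 0.046, 0.18 and, for the last 8 genes, 0.16. The first run there, from Map4k2 to Bad, held 7 higher genes and 1 lower, and the run from Otub1 to Pla2g16 held 3 of each. In that run the S487D libraries had medians of 0.065, 0.033 and 0.0025 relative to the S487A mean, and the S487A libraries -0.029, 0.0011 and 0.0022, so the groups nearly touched. All 3 S487D medians were above all 3 S487A medians in each of the 10 runs, from which, in a window drawn on this contrast, nothing is read. Across the genes of a side, which share their libraries, Spearman's rho of distance and log2 change was 0.00908 below Men1 (n = 49 genes) and -0.23 above it (n = 48).

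**Figure D2:**
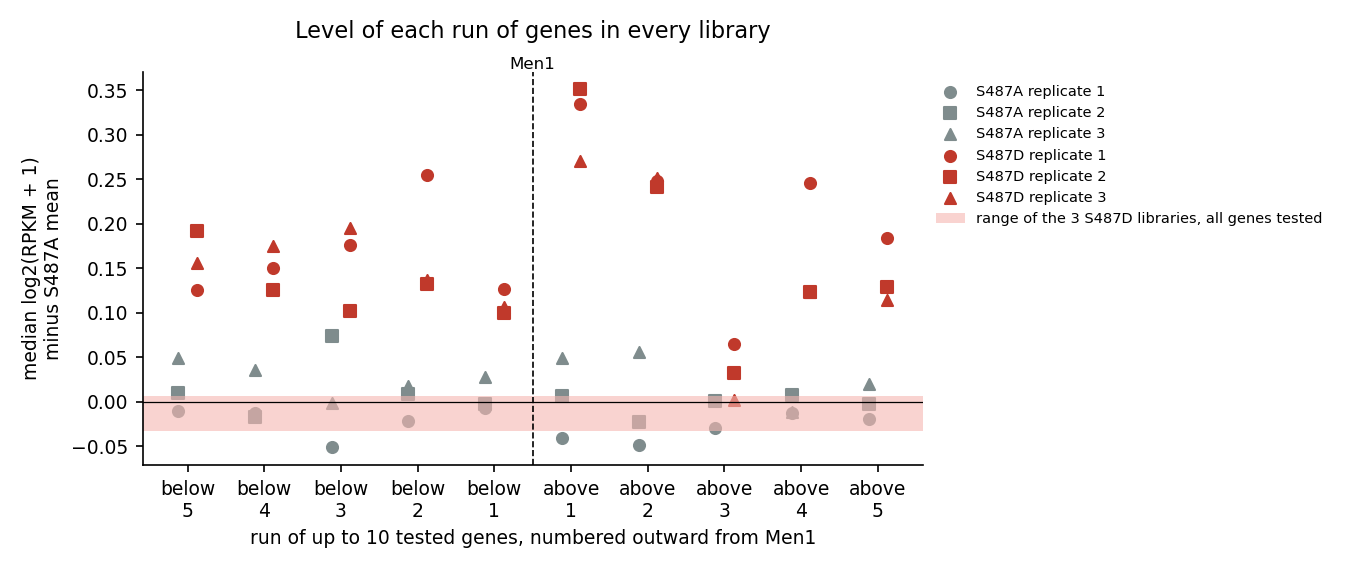
Median of log2(RPKM + 1) minus the S487A mean (vertical axis) in each library for runs of up to 10 tested genes, numbered outward from Men1 (horizontal axis, dashed line at Men1); grey symbols are the S487A and red symbols the S487D libraries, and the pink band is the range of the S487D libraries over all genes tested. The first run above Men1 reaches 0.27 to 0.35 in S487D, and the run above 3 stays at 0.065 or less.

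Genes on either side of the window's borders varied in direction and size. Just inside the lower border, Cst6, a cystatin protease inhibitor gene, was read at 110 ± 5.93 and 105 ± 3.65 RPKM in S487A and S487D (log2 change -0.066, passing no test, except as lower after quantile normalization), and Banf1, which bridges DNA and the nuclear lamina, at 174 ± 9.23 and 195 ± 5.74 RPKM (log2 change 0.17). Just outside it, Catsper1 was listed at 0 in every library and Gal3st3 reached at most 0.0447 RPKM. The nearest tested genes there were Sf3b2, a splicing factor gene (log2 change 0.12, higher), and Pacs1, a sorting protein gene (log2 change -0.15, passing no test). At the upper border LOC690349, named C1h11orf98 in RefSeq, was read at 28.7 ± 1.40 and 33.0 ± 3.70 RPKM (log2 change 0.19), passing no test as reported but passing as higher with a filter at RPKM 5, after quantile normalization, after median centring and without S487D replicate 2. It lies next to LOC102552120 with at most 0.0809 RPKM. Outside, LOC102551607 reached at most 0.242 RPKM and Ints5, an Integrator complex subunit gene, was at 17.3 ± 1.11 and 20.2 ± 0.280 RPKM (log2 change 0.22), followed by Ganab, a glucosidase gene of the ER (log2 change 0.068, passing no test). The 10 tested genes beyond the lower border had a median log2 change of 0.12, with 5 higher and 1 lower, and the 10 beyond the upper border a median of 0.18, with 5 higher and 0 lower. Over 50 tested genes the medians were 0.11 beyond the lower and 0.065 beyond the upper border.

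Nearest to Men1, neighbours differed in direction. Men1 itself was read at 71.2, 76.7 and 75.0 RPKM (S487A) and 113, 103 and 119 RPKM (S487D) (log2 change 0.58, SE 0.055, limma adjusted p = 2.89e-05; two-sided exact permutation p = 0.1, the smallest that 3 against 3 can give), and the reads of transgene and rat gene cannot be told apart here. Map4k2, a kinase of the stress-activated MAP kinase pathway, starts 279 bases beyond the end of Men1 on the same strand. It was read at 14.5, 15.3 and 14.9 RPKM (S487A) and 13.4, 12.7 and 13.7 RPKM (S487D), below all S487A libraries, with a log2 change of -0.16 (SE 0.053). Its call was lost in 8 of 15 alternatives, among them the replicate block and the omission of S487A replicate 2 or 3 or S487D replicate 1 or 2. The next gene outward, Sf1, which codes for a splicing factor that recognises the branch point, had 41.6, 44.2 and 42.1 RPKM (S487A) and 53.1, 53.6 and 54.7 RPKM (S487D) (log2 change 0.33), with no overlap. Rasgrp2, an exchange factor gene for the GTPase Rap, followed at 2.60 ± 0.287 and 4.25 ± 0.293 RPKM (log2 change 0.54).

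Below Men1 the nearest tested gene is Cdc42bpg, a kinase gene of actin regulation, which ends 10.9 kb away. Its libraries held 28.9, 29.2 and 28.2 RPKM (S487A) and 33.8, 33.4 and 33.5 RPKM (S487D) (log2 change 0.22). Ehd1, a gene of endocytic recycling, was at 36.5 ± 1.42 and 38.9 ± 1.72 RPKM, and Ppp2r5b, a regulatory subunit gene of a major protein phosphatase, at 22.8 ± 0.926 and 22.6 ± 2.11, and neither passed the test. For Ppp2r5b the sign of the log2 change (-0.017) turned after median centring and without S487A replicate 3 or S487D replicate 2.

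Only a few genes stood far from the others on their side. A log2 change at least 1.5-fold away from the side's median was met by 3 of the 97 genes, all of them lower in S487D and with low levels: Gpha2, Flrt1 and Pla2g16. No gene lay that far above its side's median. All 3 were below 5 RPKM in every library, so none of them was tested with the filter at RPKM 5. Gpha2, 107 kb below Men1, codes for the alpha subunit of the glycoprotein hormone thyrostimulin. It was read at 2.13, 2.39 and 2.53 RPKM (S487A) and 0.834, 0.860 and 1.51 RPKM (S487D), from 206 and 87 reads per group in all. All S487D libraries were below all S487A libraries, with replicate 3 closer to them than the other S487D libraries. Gpha2 met the filter of 1 RPKM through the S487A libraries, where it is higher, so the gap is given as a description. The log2 change of Gpha2 was -0.71 (SE 0.13) with a pseudocount of 1 and -1.11 with a pseudocount of 0.1. The row of Gpha2 overlaps those of LOC499306 and Ppp2r5b by at most 18 bases. LOC499306, named Majin in RefSeq, a gene known for attaching telomeres to the nuclear envelope in meiosis, lies directly beside it and was also lower, at 12.9, 11.9 and 12.8 RPKM (S487A) and 9.24, 9.55 and 9.22 RPKM (S487D) (log2 change -0.39). With a difference of -0.56 from its side's median it falls short of the rule at a pseudocount of 1, but meets it with a pseudocount of 0.1 or 0.01 and with voom. It was chosen after its values were seen.

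Flrt1 codes for a transmembrane adhesion protein with leucine-rich repeats and lies wholly inside the row of Macrod1, on the opposite strand. Its libraries held 3.04, 2.92 and 2.89 RPKM (S487A) and 1.56, 1.79 and 1.76 RPKM (S487D) (log2 change -0.55, SE 0.081), a clear gap between the groups. Macrod1, a hydrolase gene for ADP-ribose marks, was at 10.6 ± 1.22 and 9.35 ± 0.940 RPKM and passed no test. The library kit does not mark strand, so reads of the overlapping exons of such pairs cannot be told apart. Pla2g16, a phospholipase gene now named Plaat3, was read at 3.67, 3.67 and 4.46 RPKM (S487A) and 2.18, 2.79 and 2.56 RPKM (S487D) (log2 change -0.49, SE 0.098), again with no overlap. It falls short of the 1.5-fold rule after quantile normalization and without S487D replicate 1. The 8 lower genes also included the microtubule-affinity kinase gene Mark2 (log2 change -0.14), the ER-shaping GTPase gene Atl3 (-0.19), LOC102547101 (-0.24) and Map4k2, all 4 with smaller changes; Mark2, Atl3 and LOC102547101 were named after their values were seen, to complete the count. The number of lower genes was 4 in place of 8 without S487D replicate 1 and 4 after median centring.

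At the upper end, the farthest gene was Rps6ka4, chosen after its values were seen, which codes for a mitogen- and stress-activated kinase of histone H3 and CREB. It was read at 20.8, 21.4 and 23.7 RPKM (S487A) and 35.3, 35.8 and 35.9 RPKM (S487D) (log2 change 0.68, SE 0.054) with a wide gap between the groups. The log2 change of Men1, 377 kb away, was 0.58, though the difference between the genes was not tested.

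RGD1560108, an older name of the zinc finger gene Zfta and also chosen after its values were seen, was read at 11.4, 12.9 and 12.3 RPKM (S487A) and 19.7, 17.7 and 18.8 RPKM (S487D) (log2 change 0.58). Cdca5, the gene of sororin, which holds sister chromatids together, was at 7.95, 8.16 and 7.99 RPKM (S487A) and 11.5, 12.2 and 11.6 RPKM (S487D) (log2 change 0.50), and the Golgi protein gene Zfpl1 beside it at 14.1, 17.4 and 15.0 against 21.6, 19.1 and 23.8 RPKM (log2 change 0.45). In both genes the groups did not overlap. Both were chosen after their values were seen, and a gene 1100 kb above Men1, LOC686151, named Cdca5l1 in RefSeq, is a copy of Cdca5 by name that the counting could confuse with it; it had 30 and 48 reads per group and passed no test.

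**Figure D3:**
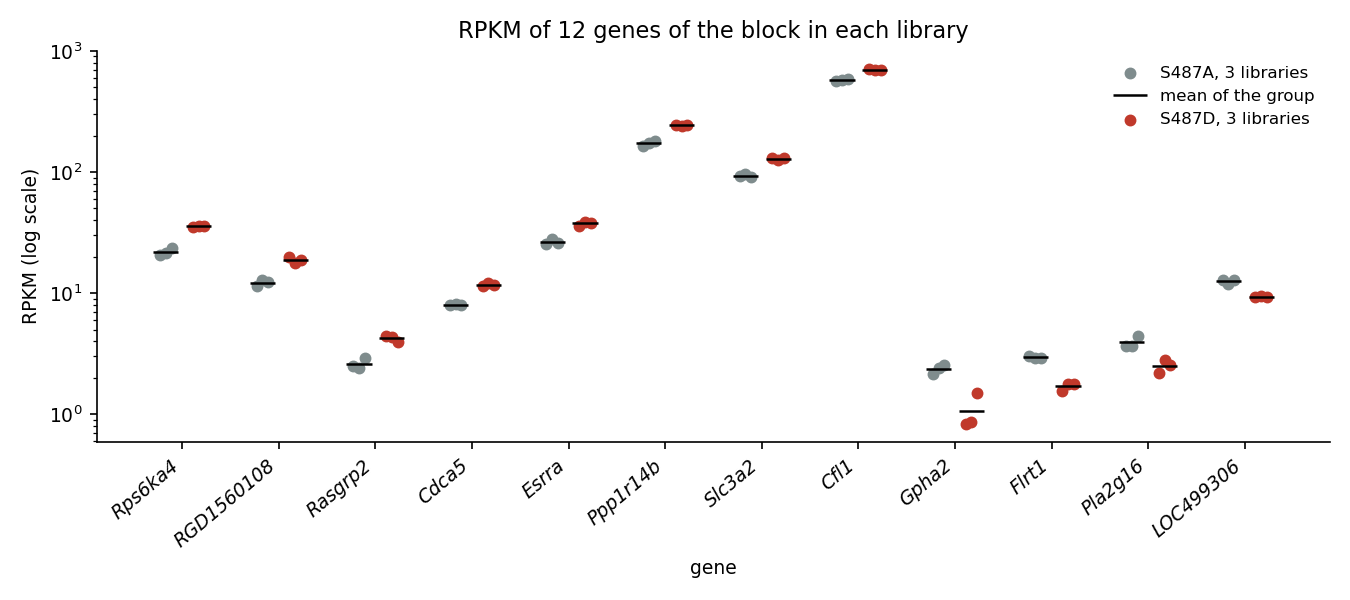
RPKM on a log scale (vertical axis) of 12 genes of the block (horizontal axis) in the 3 S487A (grey) and 3 S487D (red) libraries, with group means as black bars. The first 8 genes are higher and the last 4 lower in S487D, with no overlap between the groups in any of the 12, and the mean of Rps6ka4 in S487D is 35.7 RPKM.

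Promoter letters of 4 of these genes are printed from RefSeq (GRCr8 build, 250 bases before to 50 after the start, 5′ to 3′ on the gene's strand), to show the shared start region of Cdca5 and Zfpl1 beside the farthest higher gene and the lowest ones. Capitals mark the letters GGGCGG or their reverse complement, the core of a GC box.
Cdca5 promoter (chr1:212807613-212807912, plus strand, GRCr8): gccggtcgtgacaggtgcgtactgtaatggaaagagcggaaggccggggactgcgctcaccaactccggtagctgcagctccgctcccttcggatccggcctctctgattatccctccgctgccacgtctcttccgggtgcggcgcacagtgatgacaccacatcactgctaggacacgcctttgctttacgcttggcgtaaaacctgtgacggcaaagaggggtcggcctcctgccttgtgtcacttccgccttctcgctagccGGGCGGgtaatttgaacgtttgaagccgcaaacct
Rps6ka4 promoter (chr1:213461933-213462232, minus strand, GRCr8): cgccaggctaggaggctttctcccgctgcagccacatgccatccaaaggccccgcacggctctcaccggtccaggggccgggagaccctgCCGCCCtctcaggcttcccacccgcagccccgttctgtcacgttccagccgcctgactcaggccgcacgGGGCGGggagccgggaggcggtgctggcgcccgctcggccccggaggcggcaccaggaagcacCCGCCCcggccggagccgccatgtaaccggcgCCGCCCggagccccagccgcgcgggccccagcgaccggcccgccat
Gpha2 promoter (chr1:212955137-212955436, plus strand, GRCr8): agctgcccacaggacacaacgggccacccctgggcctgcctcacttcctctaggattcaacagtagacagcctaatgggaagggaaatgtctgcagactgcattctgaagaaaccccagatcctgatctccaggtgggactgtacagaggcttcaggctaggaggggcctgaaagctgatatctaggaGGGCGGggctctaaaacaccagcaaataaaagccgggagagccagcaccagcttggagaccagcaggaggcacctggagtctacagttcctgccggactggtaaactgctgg
Flrt1 promoter (chr1:213714626-213714925, minus strand, GRCr8): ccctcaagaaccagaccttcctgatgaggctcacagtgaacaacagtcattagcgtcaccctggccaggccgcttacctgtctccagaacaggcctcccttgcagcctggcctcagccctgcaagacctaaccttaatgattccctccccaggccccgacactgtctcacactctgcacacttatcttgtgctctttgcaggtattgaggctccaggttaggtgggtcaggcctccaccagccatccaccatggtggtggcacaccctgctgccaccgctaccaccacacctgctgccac
The promoter windows of Cdca5 and Zfpl1 overlap by 257 bases on opposite strands. Cdca5 has 26 CG dinucleotides and Rps6ka4 35, with GC contents of 60.0 and 76.7%, and Gpha2 (56.3% GC) and Flrt1 (58.7% GC) have 4 each. The number does not sort the genes by direction: the lower gene Pla2g16 has 13, and Gng3 and Tmem262, which were higher, have 3 and 1. The GC box letters occur 4 times in Rps6ka4, 1 time each in Cdca5 and Gpha2, and 0 times in Flrt1. The last 50 bases of the Flrt1 window, those from its listed start, open with atg, the letters of a start codon. Whether transcription begins at that start was not tested, so the window may miss the promoter and nothing is read from its counts.

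Of the 97 tested genes, 79 had a promoter in the RefSeq table. Their median GC content was 59.7% with a median of 21 CG dinucleotides, against 52.3% and 7 over all 27457 promoters of the table, a table that also holds genes not tested here. GGGCGG, on either strand, was in 72.2% of the 79 and 34.9% of all, CCAAT in 40.5% and 37.7%, the E-box CACGTG in 10.1% and 6.65%, and the full cAMP response element TGACGTCA in 0 of the 79 and 1.91% of all. Among the genes called higher, GGGCGG was in 33 of 43 promoters, among those called lower in 4 of 7, and among those that passed no test in 20 of 29. A match describes letters only.

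Neighbours that start close together in opposite directions did not always change alike. In the block, 12 such head-to-head pairs of tested genes with rows that do not overlap had at most 1000 bases between their starts. Polr2g and Zbtb3, whose rows overlap by 256 bases at their starts, were not counted as a pair. Both genes were higher in S487D in 4 pairs, 1 of them in 7 and neither in 1, and the signs were equal in 9. The 4 pairs were Drap1 and Bles03 (log2 changes 0.23 and 0.27), Zfpl1 and Cdca5 (0.45 and 0.50), Mrpl49 and Fau (0.19 and 0.28) and Prdx5 and Trmt112 (0.36 and 0.30). Slc3a2 and Gng3, by contrast, had log2 changes of 0.45 and 0.48, and their partners LOC100912041 and Bscl2 had 0.13 and 0.11 and passed no test. The median difference within a pair was 0.19.

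**Figure D4:**
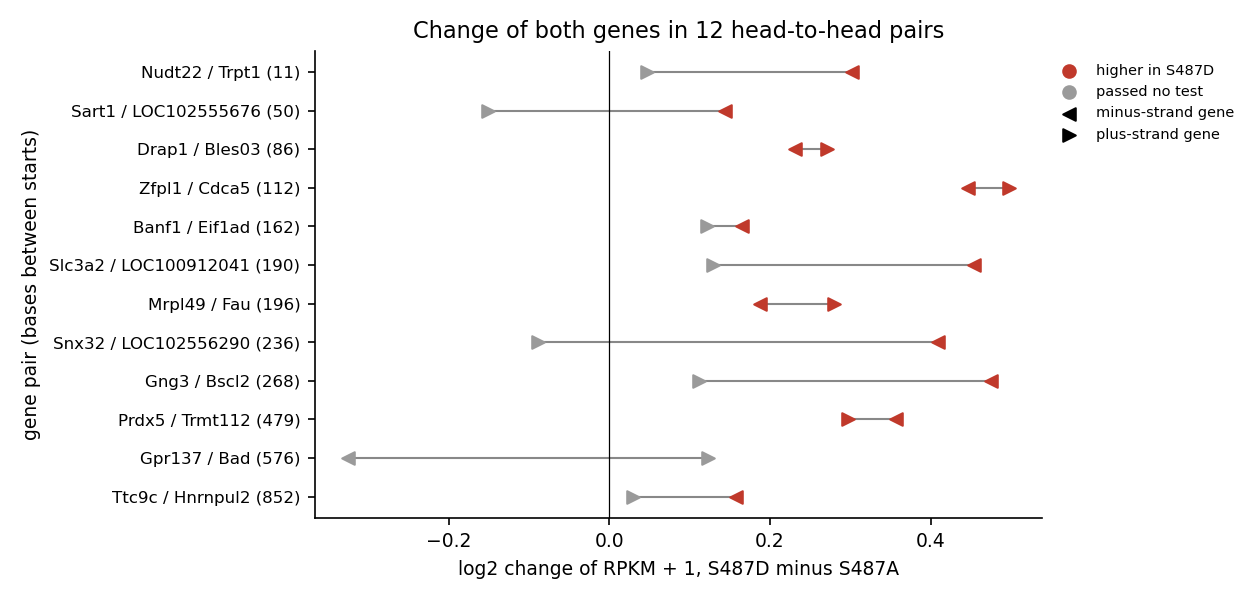
Log2 change of RPKM + 1 (S487D minus S487A, horizontal axis) of the minus-strand and plus-strand gene in 12 head-to-head pairs (vertical axis, with the bases between their starts); red marks genes called higher, grey genes that passed no test, and lines join a pair. In 4 pairs both symbols are red, and the widest gap is that of Snx32 and LOC102556290 (0.50).

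Counts by role, as those by run, border and stretch, stand against 20.1% higher and 24.3% lower among all genes tested, and nothing is read from them. By role, genes of RNA processing and the transcription machinery were higher or passed no test: 8 of 14 were higher and 0 lower, with a median log2 change of 0.17, against -0.014 over all genes tested. Trmt112, a cofactor of several methyltransferases, was read at 167, 163 and 166 RPKM (S487A) and 212, 215 and 184 RPKM (S487D) (log2 change 0.30), and Drap1, a corepressor of general transcription, at 80.7 ± 4.66 and 94.8 ± 1.83 (log2 change 0.23). Hnrnpul2, an RNA-binding protein gene with a high level, was at 145 ± 2.90 and 148 ± 2.48 RPKM and passed no test; its sign turned after quantile normalization. Of 8 genes of DNA replication, repair and cell division, 5 were higher and 0 lower (median log2 change 0.18). Banf1 was described at the border, Sssca1, a gene of a zinc ribbon protein, was at 77.4 ± 4.41 and 91.7 ± 4.45 RPKM (log2 change 0.24), and Rnaseh2c, a subunit gene of the enzyme that removes RNA from DNA, at 44.0 ± 1.80 and 45.1 ± 2.39, passing no test. The call of Banf1 was lost after quantile normalization, without the intensity trend, and without S487A replicate 2 or S487D replicate 3. On the list of sequence-specific transcription factors 1 of 3 tested genes was higher and 0 lower; the zinc finger gene Zbtb3 (log2 change 0.28), also higher, was counted under RNA processing and transcription. The higher gene was Esrra, the orphan nuclear receptor of mitochondrial energy genes, with 25.6, 28.2 and 25.9 RPKM (S487A) and 35.8, 39.0 and 37.9 RPKM (S487D) (log2 change 0.49). The row of Esrra overlaps that of Trmt112 by 52 bases. Rela, a subunit gene of NF-kB, was at 48.4 ± 0.869 and 51.5 ± 3.96 RPKM, and Dpf2, of the BAF chromatin remodeller, at 66.0 ± 0.498 and 70.0 ± 2.20, and neither passed the test.

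Of genes of kinases, phosphatases and signal transduction, 8 of 15 were higher, 1 lower and 6 passed no test (median log2 change 0.14). Besides Rps6ka4, Rasgrp2 and Map4k2, the list holds Ppp1r14b, an inhibitor gene of a protein phosphatase, which was read at 165, 173 and 182 RPKM (S487A) and 244, 242 and 242 RPKM (S487D) (log2 change 0.48), well apart. Frmd8, a gene that stabilises a complex that sheds membrane proteins, was at 39.6 ± 1.48 and 41.9 ± 2.16 RPKM, passing no test. Of the 5 tested neuronal and synaptic genes, 3 were higher and 2 lower (median log2 change 0.15); the 2 lower were Flrt1 and Gpha2, the latter a hormone gene rather than a synaptic one. Gng3, a G protein gamma subunit gene, had 22.1, 23.8 and 23.5 RPKM (S487A) and 32.6, 32.2 and 32.9 RPKM (S487D) (log2 change 0.48). Nrxn2, a neurexin gene of the presynaptic membrane, was at 19.3 ± 0.570 and 22.9 ± 0.990 RPKM (log2 change 0.24).

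Genes of membrane traffic, the cytoskeleton and adhesion included the most abundant mRNA of the block. Of 10 tested, 7 were higher, 1 lower and 2 passed no test (median log2 change 0.20). Cfl1, the actin-severing protein cofilin, was read at 560, 576 and 590 RPKM (S487A) and 716, 698 and 691 RPKM (S487D) (log2 change 0.29, or 0.15 after quantile normalization), and all S487D libraries were above all S487A libraries. Snx32, a sorting nexin gene whose row overlaps that of Cfl1 by 242 bases, was at 35.7 ± 1.10 and 47.7 ± 2.10 RPKM (log2 change 0.41), and Rtn3, a reticulon gene of ER tubules, at 72.9 ± 1.10 and 80.9 ± 3.398 (log2 change 0.15). The call of Rtn3 was lost in 4 of 15 alternatives, among them without S487A replicate 2 and without S487D replicate 1.

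Of genes for protein folding, modification and degradation, 7 of 10 were higher, 0 lower and 3 passed no test (median log2 change 0.20). Fau, a ubiquitin-like protein fused to a ribosomal protein, was read at 514, 518 and 565 RPKM (S487A) and 657, 672 and 610 RPKM (S487D) (log2 change 0.28, or 0.17 after quantile normalization), with no overlap. Fau is a ribosomal protein gene, a class with many pseudogenes that can take its reads. Ubxn1, an adaptor of the segregase VCP, was at 122 ± 1.49 and 137 ± 4.85 RPKM (log2 change 0.17, or 0.10 after quantile normalization). Stip1, which joins heat shock chaperones, was at 223, 222 and 239 RPKM (S487A) and 221, 217 and 214 RPKM (S487D) (log2 change -0.067); the libraries of the groups did not overlap, yet the gene passed no test, except as lower after quantile normalization (log2 change -0.17).

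Of 4 tested mitochondrial and antioxidant genes, 2 were higher and 2 passed no test (median log2 change 0.15). Prdx5, a peroxiredoxin, was read at 107, 99.9 and 114 RPKM (S487A) and 138, 142 and 131 RPKM (S487D) (log2 change 0.36). Mrpl49, of the mitochondrial ribosome, was at 60.4 ± 2.68 and 69.0 ± 5.90 RPKM (log2 change 0.19), with overlapping groups and a call lost in 7 of 15 alternatives, among them the replicate block and the omission of either S487A replicate 1 or 2 or S487D replicate 1 or 2. Bad, a gene of the cell death branch of the BCL2 family, was at 29.6 ± 1.99 and 32.3 ± 1.42 RPKM and passed no test; it passed after median centring and without S487A replicate 3. The lipid list had 2 tested genes, Pla2g16, which was lower, and the sterol reductase gene Tm7sf2, at 4.21 ± 0.438 and 3.95 ± 0.147 RPKM, which passed no test (log2 change -0.073, with the opposite sign after quantile normalization). The role lists held 66 of the 97 tested genes, and 31 were on none. Those 31 include the kinase genes Mark2, which was lower, and Cdc42bpg, which was higher, and the ER-shaping GTPase gene Atl3, which was lower. The counts of kinase and membrane genes above therefore leave them out. Some genes, among them Rtn3, Flrt1, Gng3, Bad and Dpf2, were on more than a single list and are counted in each.

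The transporter part of the neighbourhood was nearly silent. Of 11 solute carrier and ion channel genes of the list in the block, 1 was tested. It was Slc3a2, the heavy chain of amino acid transporters at the cell surface, which was read at 93.4, 95.7 and 90.3 RPKM (S487A) and 130, 125 and 130 RPKM (S487D) (log2 change 0.45), with no overlap. From 222877181 to 224906565, a stretch of 2.03 Mb between Pla2g16 and Slc3a2, the table lists 17 genes, of which 11 were at 0 in every library and 1, the pseudogene LOC690183 (Dnajb6-ps10 in RefSeq), was tested and passed no test. The other genes of the stretch reached at most 0.363 RPKM. Its 6 organic anion transporter genes, among them the kidney transporters Slc22a6 and Slc22a8, reached at most 0.0433 RPKM, and 5 of them were at 0. On the far side of this stretch, 17 tested genes from Slc3a2 to LOC690349 had a median log2 change of 0.17, with 9 higher, 0 lower and 8 passing no test, and the 30 on the near side had a median of 0.24, with 16 higher, 5 lower and 9 passing no test. Of all 143 genes of the block, 46 were not tested; they reached at most 1.24 RPKM, and 13 of them were at 0 throughout.

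The tested genes of the block had a median of 23.1 RPKM and 2079 bases, against 11.4 RPKM and 2729 bases over all genes tested, and the change varied with both properties across the table. With all genes tested cut in 3 equal classes by mean RPKM, the median log2 change was -0.081, -0.026 and 0.053 from the lowest to the highest class. The block had 18, 26 and 53 genes in these classes, with medians of -0.047, 0.21 and 0.18. From the lowest to the highest class, 22.2, 50 and 60.4% of the block's genes were higher in S487D, against 9.70, 17.2 and 33.5% of all genes. In the same order 3, 5 and 0 genes of the block were lower, against 1058 of 4176, 1089 of 4175 and 894 of 4176 of all genes. By gene length the medians of all genes were 0.048, -0.0039 and -0.070 from the shortest to the longest class, and those of the block 0.19, 0.12 and 0.20, from 48, 35 and 14 genes. The block's median lay above that of all genes in each class. Since the window was drawn on this contrast, nothing is read from this, and the part of level and length in the change was not tested. The 24 tested genes whose rows overlap another tested gene had a median of 0.19 and the 73 others one of 0.17.

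**Figure D5:**
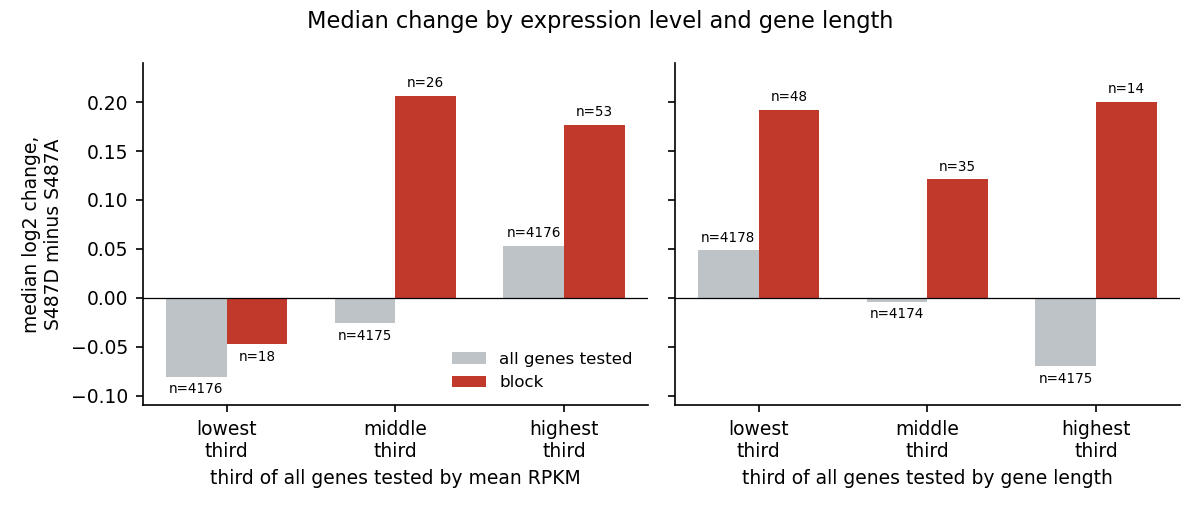
Median log2 change (S487D minus S487A, vertical axis) of all genes tested (grey bars) and of the tested genes of the block (red bars) in classes of equal size over all genes tested, by mean RPKM (left) and by gene length (right); n is the number of genes. The block's bars are at 0.12 or more except in the lowest class of RPKM, where its 18 genes have a median of -0.047.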

How the data were processed

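Messenger RNA of 6 INS-1 samples, 3 labelled S487A and 3 labelled S487D, was analysed from 1 table of 35362 gene rows. The submitters' processing notes name bcl2fastq 2.17, cutadapt, TopHat2 2.0.13 and the rn6 build. The counter is not given in the sources used here, nor is the annotation. The values the authors deposited are RPKM per gene and library, with gene position and length, per the file headers. From RPKM, gene length and the smallest spacing of values, whole reads (tolerance 0.05) were worked out for at least 99.95% of values, giving the 9444801 to 10867549 reads per library. Between libraries of a group, chi-square was 1.36 to 1.88 times what counting alone gives, and each was kept as a replicate.

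Groups and replicate numbers came from sample titles. The fit took the genes that reached 1 RPKM in 3 or more libraries. It was made on the log2(RPKM + 1) scale in R 4.3.3 by limma 3.58.1, with an intensity trend and no covariate beside the group. Two-sided p-values of all 12527 genes tested were adjusted together (Benjamini-Hochberg), with 0.05 as threshold. The log2(RPKM + 1) scale understates the change of genes near 1 RPKM. Means are given ± SD over n = 3 libraries per group. The genes and role lists were chosen with earlier results of these data known, as were the window and the rule for named genes. That rule took genes at least 1.5-fold from their side's median, the 3 tested genes nearest Men1 on each side, the genes at the borders, up to 3 of the most abundant tested genes of each role list and the 5 most abundant of all; others are said to be chosen after their values were seen, and 1 gene that the rule takes is not reported here. The fit was tested on simulated reads in which few genes were changed. It recovered 14% of the 1.2-fold and 76% of the 1.5-fold changes there, where 149 of 12496 genes were called. In the data 2523 genes were called higher and 3041 lower, so the adjusted threshold was less strict than in the simulation. The recovered shares do not carry over to these libraries for that reason. A gene that passed no test may still differ, by an amount that the simulation does not give. Alternatives were pseudocounts of 0.1 and 0.01, a replicate block, median centring, quantile normalization, omission of the trend or of the filter, a filter at RPKM 5, limma voom on the reads worked out from RPKM, and each library left out in turn. The labels give both groups the replicate numbers 1 to 3 without saying that a number marks a shared batch. Python 3.11.15 with pandas 2.3.3 was used for tables. Symbols and promoters were matched to RefSeq tables of the GRCr8 build, of which no coordinate was combined with those of rn6.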

Additional observations from a re-analysis of the deposited data

How the results depend on the processing

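The number of genes of the block called higher in S487D (49) stayed within 1.5 times under all 15 alternatives, from 38 without S487D replicate 1 to 62 after median centring. The number called lower (8) was 4 after median centring and ranged from 4 to 9 with a library left out; the cause was not tested. The median log2 change of the block and of both sides stayed positive in all 15. For the whole block, with 0.17 as reported, it was 0.18 with a pseudocount of 0.1, 0.18 with one of 0.01, 0.11 without a filter on low values, 0.18 with a filter at RPKM 5, 0.22 after median centring and 0.18 with voom on recovered reads. Below Men1 the same settings gave 0.18, 0.18, 0.12, 0.18, 0.22 and 0.18. Above Men1 the value was 0.11 without a filter and 0.24 after median centring. With a library left out the medians ranged from 0.15 to 0.18 for the block, from 0.15 to 0.17 below Men1 and from 0.15 to 0.19 above it. The log2 change of Men1 passed the threshold in every alternative. The log2 change of Hnrnpul2 was -0.038 and the log2 change of Tm7sf2 was 0.030 after quantile normalization, signs opposite to those reported. The log2 change of Ppp2r5b was 0.041 after median centring and ranged from -0.070 without S487D replicate 1 to 0.057 without S487D replicate 2, and was 0.0038 without S487A replicate 3. Median centring moved the median of all genes from -0.014 to 0.044.

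With the replicate block, 49 genes of the block were higher and 7 lower. Deviations of same-numbered libraries correlated at 0.0035, -0.060 and 0.010, and no library correlated best with its own number, so the numbers were not taken to pair the samples. With 9444801 to 10867549 reads per library, in 4 of the 97 tested genes a library held fewer than 20.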
